A study of Homo sapiens with 6 samples.

Results

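Very long genes are protein-coding genes whose introns stretch them far along the chromosome; spans are given in kilobases (kb). A list of 46 such genes was followed by symbol through the gene count table of the alpha satellite RNA knockdown, which holds 53719 rows. All 46 had a row, and all passed the filter on low counts that left 19721 genes for testing. Each gene's span was taken from the GENCODE annotation of GRCh38, the build that the submitters' processing notes name. By that annotation 45 of the 46 genes span 400 kb or more, from 442 kb for TCF4 to 2474 kb for RBFOX1, and the median is 1054 kb. COL4A3BP is the exception, with a span of 156 kb, and goes against the name of the list. Exons make up 0.240% (GPC5) to 11.6% (COL4A3BP) of each span, with a median of 1.01%.

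All libraries came from H9, an established line of human embryonic stem cells, grown in RSeT medium, which is sold to hold such cells in a naive-like condition. The knockdown group was transfected with an antisense gapmer against ALR, the RNA of the alpha satellite repeats at centromeres, and the control group with a control gapmer. Gapmers are short oligonucleotides with a DNA core that lets RNase H cut the RNA they pair with. Total RNA was taken after 48 h and made into libraries with a directional kit, 3 per group, marked a, b and c. Values of a group are given in that order of its libraries, knockdown first. The labels do not say whether the 3 libraries of a group came from separate cultures, so p-values measure only the spread between these libraries, which may be technical. The level of ALR RNA itself was not analysed here. In bulk RNA, fewer cells of a type and less RNA per cell cannot be told apart.

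RNA polymerase II needs hours to cross a gene of this size, and nearly all of the transcript it makes is intron. Such genes are known to depend on elongation factors and topoisomerases, and several of them coincide with common fragile sites, chromosome regions that break under replication stress. Many encode adhesion, synapse and signalling proteins best known from neurons, and others are expressed in most cell types.

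The promoters of the only listed genes that passed the test, EXOC4 and THSD7A, are shown to give the start of each transcription unit. Each is the 250 bases before the gene's start in RefSeq on GRCh38.p14, written 5′ to 3′ on the gene's strand, with CCAAT in either orientation in capitals. The EXOC4 window lies at chr7:133252828-133253077 on the plus strand, and the THSD7A window at chr7:11832199-11832448 on the minus strand.
EXOC4: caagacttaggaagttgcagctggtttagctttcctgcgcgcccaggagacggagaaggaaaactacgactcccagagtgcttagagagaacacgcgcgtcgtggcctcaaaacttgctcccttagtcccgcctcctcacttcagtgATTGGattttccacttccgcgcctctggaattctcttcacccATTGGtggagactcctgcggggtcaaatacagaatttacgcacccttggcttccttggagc
THSD7A: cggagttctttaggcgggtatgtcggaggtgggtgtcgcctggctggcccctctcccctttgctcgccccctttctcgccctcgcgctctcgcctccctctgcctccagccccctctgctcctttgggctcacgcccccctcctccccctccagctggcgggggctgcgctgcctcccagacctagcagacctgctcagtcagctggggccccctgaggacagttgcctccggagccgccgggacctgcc
The EXOC4 window holds 2 matches to CCAAT (both on the other strand, as ATTGG), 13 CpG sites and 53.6% GC. THSD7A has none of these matches, 15 CpG sites and 70.8% GC. Neither holds GGGCGG on either strand. Over all 35116 promoter windows of this length, 32.0% hold CCAAT and 42.6% hold GGGCGG. Among the 99 windows of the 38 listed genes with a match by symbol, 27.3% and 33.3% do. A match of letters is a description and not a binding site.

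Total counts were 25087629 to 33698831 in the knockdown libraries and 28834926 to 36576752 in the controls. Knockdown library a stood apart: 29678 rows had a count in it, against 25898 to 26788 in the other 5 libraries. Markers of the pluripotent state were checked against the labelled cell type. NANOG was at 175 to 204 CPM (the depth-scaled read count, here with TMM factors) in the 6 libraries. POU5F1 was at 120.2, 152 and 127 CPM in the knockdown against 114, 87.7 and 97.3 CPM (log2 fold change 0.42, edgeR adjusted p = 0.095), and SOX2 was listed at 0 in every library. A listed 0 need not mean that a gene is silent. As described below, most protein-coding genes inside another gene's span were listed at 0. Whether this holds for the markers at 0 was not tested. The 3 shared pluripotency markers summed to 307 to 356 CPM in the knockdown and 271 to 297 in the controls, without overlap. Of 8 naive-state markers 6 reached 1 CPM, and their summed level was 67.8 to 75.0 CPM in the knockdown and 67.9 to 72.5 in the controls. KLF17, a defining one, was at 0.0275 to 0.352 CPM. Of 5 primed-state markers 4 had a row and 3 reached 1 CPM. They summed to 92.8 to 107 CPM in the knockdown and 92.2 to 102 in the controls. SFRP2 made up most of that sum (71.8 to 84.3 CPM), and THY1 was listed at 0. Neural markers summed to 192 to 259 CPM in the knockdown and 221 to 251 in the controls. Of the 9 neural markers NEUROD1 was at 0, SYT1 made up most of the sum (99.1 to 174 CPM) and 1, STMN2, was lower in the knockdown (log2 fold change -0.69, edgeR adjusted p = 0.0055). RBFOX3 had 32.0, 28.3 and 24.9 CPM against 19.0, 18.0 and 22.6 CPM (log2 fold change 0.51, edgeR adjusted p = 0.058), and MAP2 was at 0.42. Their part in the results on long genes was not tested.

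What a count covers matters for genes that are mostly intron, and the sources used here do not state it. Of 457 protein-coding genes that lie inside another gene of the table without touching its exons, 429 (93.9%) were listed at 0 in all 6 libraries. The share was 94.3% where the genes lie on opposite strands and 92.1% on the same strand. It was 7.04% among 10799 protein-coding genes that overlap no other row. Of 133 rows of any gene type inside the listed long genes, 130 were at 0, where 32300 of all 53719 rows had a count in some library. The values thus behave as counts over the whole gene span on either strand, with reads shared by 2 genes left out. Levels are therefore given as CPM, and between genes as CPM per kb of span as well as per kb of exon.

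The long genes covered a wide range of levels. GPC6, which encodes a glypican, a cell-surface heparan sulfate proteoglycan, had the highest mean of all 46 at 2300.4 CPM, equal to 1.95 CPM per kb of span and 356 per kb of exon. PTPRG followed at 1.18 CPM per kb of span and AUTS2 at 1.09. At the other end stood DPYD, the first enzyme of pyrimidine breakdown, with a mean of 4.99 CPM, 0.0054 CPM per kb of span and 0.700 per kb of exon. RBFOX1 (0.0071) and CSMD1 (0.0083) were next lowest per kb of span. Raw counts behind these values ran from 96 in the DPYD row to 99287 in the GPC6 row. DPYD is the only listed gene with under 100 counts in a library. It also shares 34.6% of its span with other rows, the most of the 46, against a median of 0.747%.

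In the comparison of knockdown with control, 2 of the 46 long genes changed, EXOC4 and THSD7A, and both were lower. Over all genes tested 0.786% passed this threshold (edgeR's quasi-likelihood test, adjusted p under 0.05) and 0.649% passed it as lower. Of the 46 genes, 33 had a lower and 13 a higher fitted value, and the median log2 fold change was -0.22 against 0.02 for all genes tested. At an unadjusted p under 0.05, 18 were lower and 1, CSMD2, was higher, where 7.56% and 6.69% of all genes were. In 8 genes every knockdown library lay below every control library, and in none above; 9.36% and 9.55% of all genes do so. The number past the threshold depended on single libraries: it was 0 without control library a (0.127% of all genes) and 26, all lower, without knockdown library c (6.40%). Under other analyses it was 22 with no low-count filter (3.29% of all genes), 8 with the DESeq2 Wald test (1.46%), 8 with the library letter as a block (1.97%), 4 with the GC trend removed (1.51%) and 0 in the robust edgeR fit (1.07%). Without knockdown library a, which stood apart, EXOC4 and THSD7A were again the 2 that passed (0.507%), and the median was -0.25. The median was -0.41 without knockdown library c and -0.10 without knockdown library b.

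The 3 knockdown libraries did not share the difference equally. The median difference of the 46 genes from the control mean, on the log2(CPM + 0.5) scale, was -0.30 in knockdown library a, -0.50 in b and -0.01 in c. The control libraries gave 0.10, -0.13 and 0.03. In library b 42 of the 46 genes lay below all 3 controls (31.3% of all genes did) and 1 above. Library a had 28 below (29.8% of all genes) and 14 above (33.5%). Library c had 11 below (28.4%) and 11 above (28.6%). The 46 genes together took 0.945%, 0.799% and 1.26% of all counts in the knockdown libraries, against 1.33%, 1.10% and 1.25% in the controls. Library c thus lay within the range of the controls, and control library b was the lowest of the controls.

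**Figure D1:**
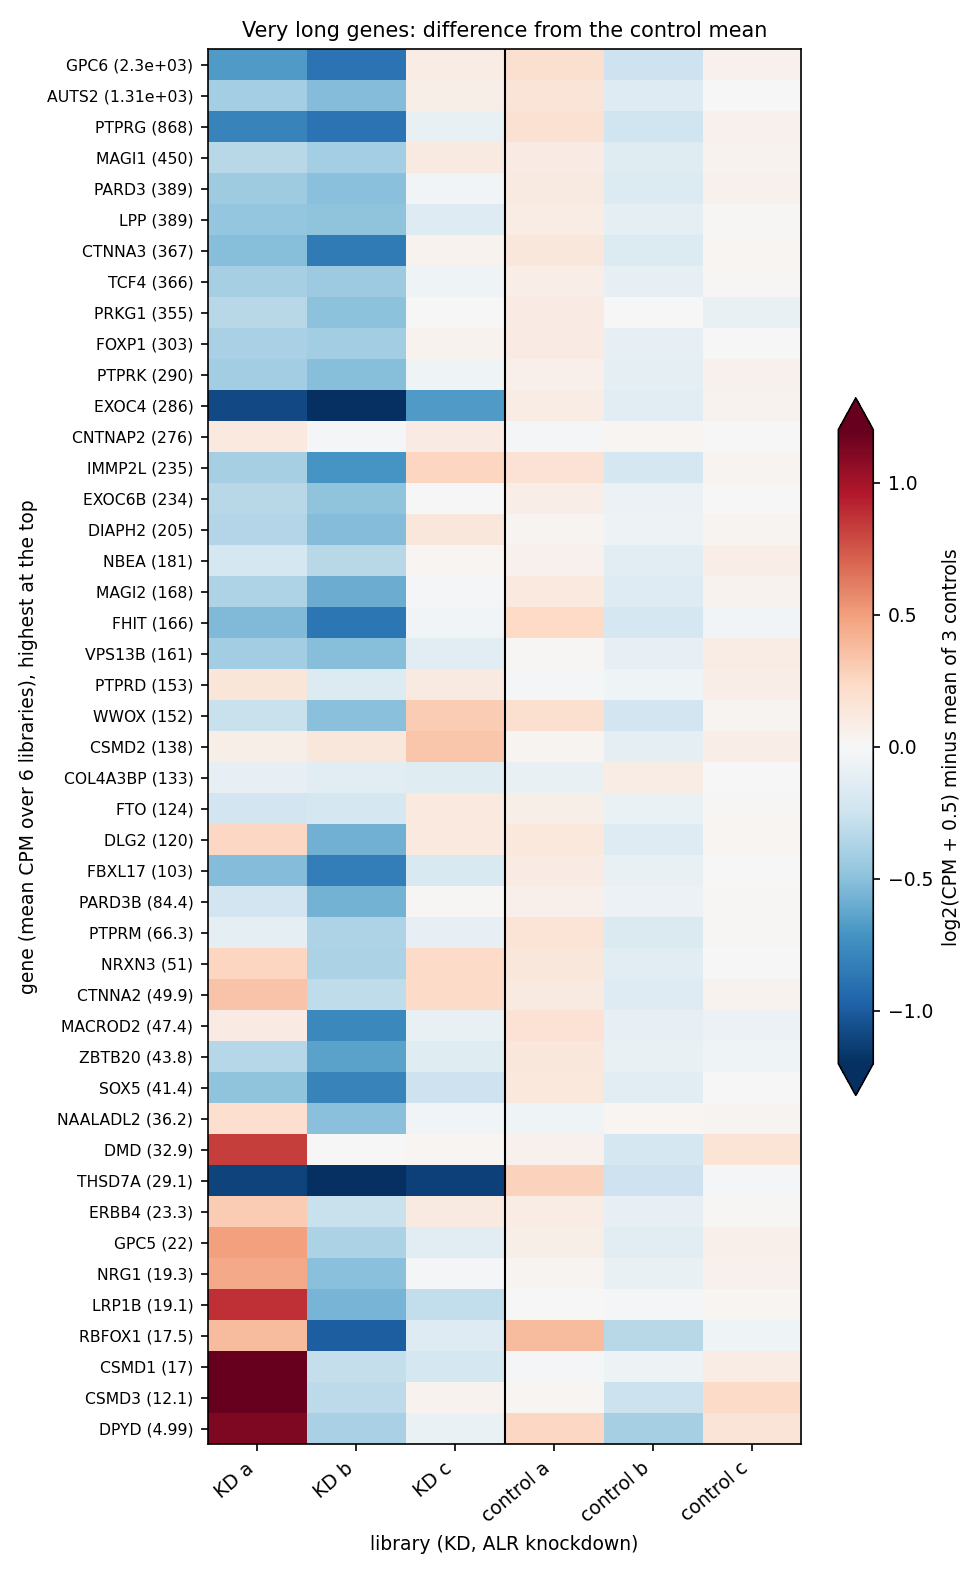
Difference of 45 listed genes (rows, ordered by mean CPM, in brackets) from the mean of the 3 control libraries, on the log2(CPM + 0.5) scale, in each of the 6 libraries (columns; KD, ALR knockdown). Knockdown library b is blue in nearly every row (42 of the 46 listed genes below all controls), library a is blue in the upper rows and red in the lowest ones, and library c is lowest in THSD7A and EXOC4, with the other genes between -0.29 (LRP1B) and 0.33 (CSMD2).

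Trafficking and lipid transfer genes held the first of the 2 genes that passed. EXOC4 encodes a subunit of the exocyst, the complex that tethers secretory vesicles to the plasma membrane. It lies on chromosome 7 from 133253073 to 134066589 on the plus strand and spans 814 kb. Its level was 179.7, 158 and 237 CPM in the knockdown and 404, 348 and 392 CPM in the controls. Every knockdown library lay well below every control, library c included. The means were 192 ± 41.2 and 381 ± 29.7 CPM (SD, n = 3 each), which puts the knockdown at 50.3% of control. EXOC4 fell by 0.99 ± 0.12 on the log2 scale (SE; edgeR's quasi-likelihood test, adjusted p = 0.0029). It passed in 14 of 16 alternatives, with adjusted p from 4.35e-29 to 0.069, and was lost in the robust edgeR fit and without control library a.

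The other exocyst genes give a comparison within 1 complex. EXOC6B, also among the long genes at 650 kb, had 202, 182 and 254 CPM against 269, 242 and 254 CPM (log2 fold change -0.26 ± 0.10 SE, edgeR adjusted p = 0.288). Its knockdown library c stood level with the controls. The remaining subunits are shorter, and none of the 7 passed, where 0.786% of all genes did. EXOC1 was at -0.17, EXOC8 at -0.14, EXOC2 at -0.10, EXOC5 at -0.02, EXOC3 at 0.01, EXOC6 at 0.07 and EXOC7 at 0.08 in log2 fold change. The difference between EXOC4 and the other subunits was not itself tested.

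**Figure D2:**
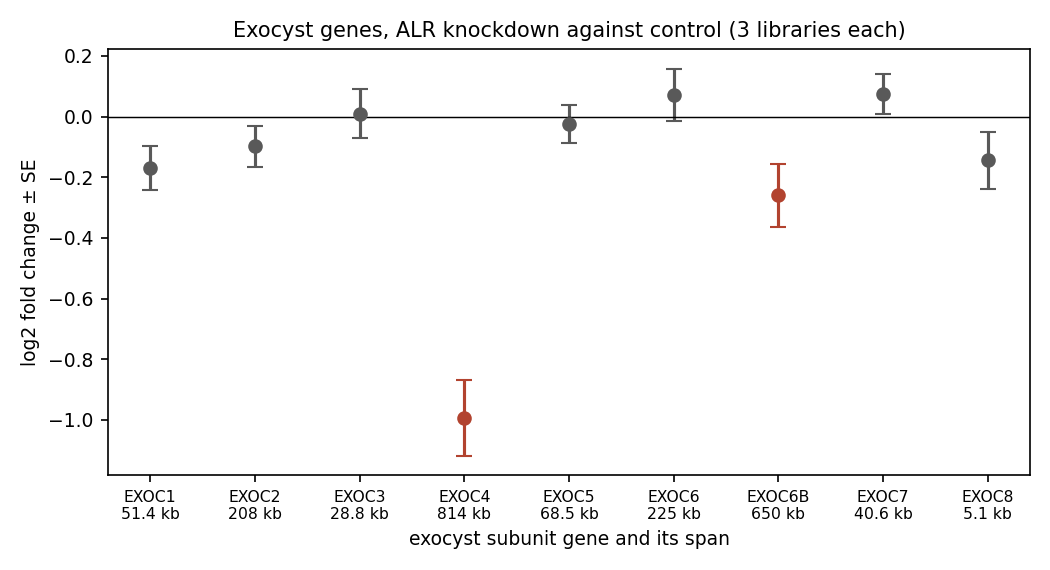
Log2 fold change (knockdown over control, y axis; bars, SE) of the 9 exocyst genes with the span of each under its name; the long genes of the list are red. EXOC4 lies at -0.99 and the other 8 between -0.26 and 0.08.

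The rest of the trafficking genes had lower values too, without passing (0.786% of all genes passed). VPS13B, which encodes a lipid transfer protein of the Golgi, had 135, 126 and 163 CPM against 181, 168 and 192 CPM. Its groups did not overlap, but the gap between knockdown library c and control library b was small (log2 fold change -0.35 ± 0.09 SE, edgeR adjusted p = 0.113). NBEA, a BEACH-domain protein of vesicle traffic, was at -0.17. COL4A3BP, the ceramide transfer protein and the 1 short gene of the list, was at -0.13: its 129, 127 and 125 CPM lay below the 131, 148 and 138 CPM of the controls by little. The median of the 5 trafficking genes was -0.26, with 5 of 5 lower.

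Adhesion and synapse receptors held the other gene that passed, but most of the others had higher fitted values, which the knockdown libraries did not share. THSD7A encodes a membrane protein with thrombospondin type 1 domains, known from podocytes and endothelial cells. It lies on chromosome 7 from 11370357 to 11832198 on the minus strand, spans 462 kb and is a low gene per length, at 0.063 CPM per kb of span. Its level was 18.9, 11.2 and 18.9 CPM in the knockdown and 50.2, 34.9 and 40.8 CPM in the controls. All 3 knockdown libraries lay below the lowest control by a wide gap, on 373 to 1483 raw counts per library. With means of 16.3 ± 4.47 and 42.0 ± 7.74 CPM (SD, n = 3 each), the knockdown stood at 38.9% of control. THSD7A fell by 1.37 ± 0.18 on the log2 scale (SE; edgeR adjusted p = 0.0034), the largest decrease of the 46. It passed in 14 of 16 alternatives, with adjusted p from 2.09e-36 to 0.111, and was lost in the same 2 as EXOC4. Transcripts annotated on the opposite strand within THSD7A have no row of their own, so their reads cannot be told apart from those of THSD7A.

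**Figure D3:**
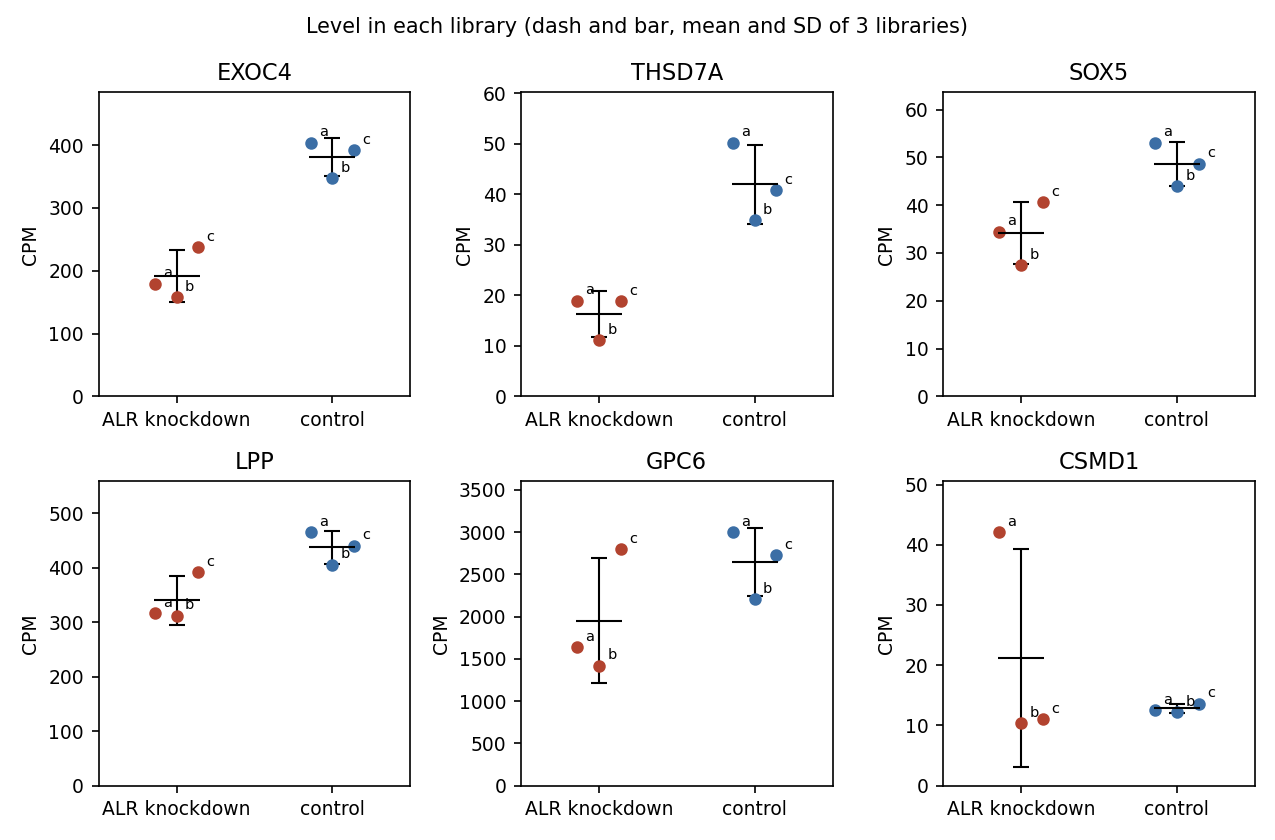
CPM (y axis, from 0) of 6 long genes in each library, with the mean and SD of the 3 libraries of a group as dash and bar. EXOC4, THSD7A, SOX5 and LPP do not overlap between the groups, GPC6 does through knockdown library c, and CSMD1 is high in knockdown library a alone.

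Of the 11 adhesion and synapse genes 3 had a lower and 8 a higher value, with a median of 0.07. Their median difference from the control mean was 0.26 in knockdown library a, -0.38 in b and 0.04 in c. In library a 7 of the 11 lay above all controls (33.5% of all genes), and in b 9 lay below (31.3%). The lower ones beside THSD7A were GPC6 and CTNNA3, an alpha-catenin that links cadherins to actin. GPC6 had 1640.1, 1421 and 2799 CPM against 3001, 2211 and 2730.3 CPM, so knockdown libraries a and b lay below every control and library c between them (log2 fold change -0.44 ± 0.20 SE, edgeR adjusted p = 0.346). CTNNA3 was at -0.40 and split the same way, with 292, 231 and 427 CPM against 457, 371 and 423 CPM. CNTNAP2, a neurexin-family protein of the axon membrane, was the second longest gene at 2305 kb. It had 292, 268 and 289 CPM against 265, 273 and 269.9 CPM, a log2 fold change of 0.07, and both groups overlapped within that narrow range. NRXN3, a presynaptic neurexin, was at 0.06, CTNNA2 at 0.11 and GPC5 at 0.04.

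The highest fold changes belonged to CSMD1 and CSMD3, 2 of the 3 listed genes for large membrane proteins with CUB and sushi domains, and came from 1 library. CSMD1 had 42.1 CPM in knockdown library a, and 10.4 and 11.0 CPM in b and c, against 12.5, 12.3 and 13.6 CPM in the controls. Its log2 fold change was 0.72 ± 0.41 SE (edgeR adjusted p = 0.456) and became -0.26 without knockdown library a. CSMD3 had 26.0, 7.60 and 9.92 CPM against 9.80, 7.95 and 11.4 CPM, and its 0.57 became -0.16. LRP1B, a large lipoprotein receptor, had 33.6, 12.1 and 14.6 CPM against 18.1, 17.7 and 18.3 CPM, and its 0.15 became -0.44. In all 3, libraries b and c lay at or below the control level. CSMD2 differed from them: it had 136, 142 and 163 CPM against 133, 119.7 and 137 CPM (log2 fold change 0.18 ± 0.08 SE, edgeR adjusted p = 0.343). Its knockdown libraries b and c lay above the highest control and library a just under it.

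Receptor tyrosine phosphatases and signalling genes had a median of -0.20, with 4 of 7 lower, and none passed (0.786% of all genes did). PTPRG, a receptor-type phosphatase, had 587, 556 and 963 CPM against 1164, 870.5 and 1067 CPM. Library c alone overlapped the controls, and the log2 fold change was -0.56 ± 0.18 (SE; edgeR adjusted p = 0.179). PTPRK, which acts at cell contacts, was at -0.31, PTPRM, a homophilic adhesion phosphatase, at -0.20, and PTPRD, which binds synaptic partners, at 0.03. PRKG1, a cGMP-dependent kinase, was at -0.27. The ligand NRG1 and its receptor ERBB4 were at 0.03 and 0.07. NRG1 had 26.4, 13.4 and 18.9 CPM against 19.5, 18.0 and 19.9 CPM, high in knockdown library a and low in b, so that its mean was level with the controls.

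Scaffold, polarity and cytoskeleton genes had a median of -0.23, and 7 of 8 had lower values. LPP, a LIM-domain protein of focal adhesions, had 317, 312 and 393 CPM against 466, 406 and 441 CPM. Its groups did not overlap, by a narrow gap between knockdown library c and control library b (log2 fold change -0.36 ± 0.09 SE, edgeR adjusted p = 0.101). MAGI1, a junction scaffold and the highest of the group, had 380.5, 361 and 517 CPM against 515, 435 and 493 CPM, with knockdown library c above every control (log2 fold change -0.20 ± 0.12 SE, edgeR adjusted p = 0.488). Its relative MAGI2 was at -0.32. The polarity scaffolds PARD3 and PARD3B were at -0.31 and -0.24, the formin DIAPH2 at -0.22 and DLG2, a synaptic scaffold, at -0.04. DMD, the dystrophin gene, was at 0.33 with 51.7 CPM in knockdown library a and 28.9 and 29.4 CPM in b and c, against 29.9, 24.9 and 32.4 CPM in the controls. Outside library a DMD stood at the control level.

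Nuclear regulators had lower values in 6 of 6, with a median of -0.28, and again none passed (0.786% of all genes did). SOX5, a SoxD transcription factor, had 34.5, 27.5 and 40.6 CPM against 53.1, 44.0 and 48.7 CPM. The groups did not overlap, and the log2 fold change was -0.51 ± 0.12 (SE; edgeR adjusted p = 0.0798). ZBTB20, a zinc-finger repressor, had 38.8, 31.4 and 44.6 CPM against 54.3, 46.3 and 47.4 CPM, also without overlap (log2 fold change -0.37 ± 0.11 SE, edgeR adjusted p = 0.165). AUTS2, a partner of Polycomb complexes and the highest of the group, had 1074, 990.2 and 1494 CPM against 1589.6, 1276 and 1423 CPM, with knockdown library c inside the control range (log2 fold change -0.27 ± 0.13 SE, edgeR adjusted p = 0.387). TCF4, an E-protein, was at -0.29, FOXP1, a forkhead factor, at -0.24 and RBFOX1, a splicing regulator, at -0.19.

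Enzymes and other intracellular proteins had a median of -0.22, with 8 of 9 lower. FBXL17, an F-box protein of a ubiquitin ligase, had 83.6, 67.4 and 106 CPM against 129, 113 and 119.98 CPM, without overlap (log2 fold change -0.49 ± 0.13 SE, edgeR adjusted p = 0.101). FHIT, a dinucleoside hydrolase, was at -0.45, IMMP2L, a mitochondrial inner membrane protease, at -0.24, MACROD2, an ADP-ribose hydrolase, at -0.22 and WWOX, an oxidoreductase, at -0.13. FHIT had 132, 104 and 186 CPM against 225, 164 and 186 CPM. WWOX had 130.4, 111 and 194 CPM against 180.2, 134 and 160.5 CPM, so that library c was above all controls. FTO, an RNA demethylase, was at -0.10, NAALADL2, a peptidase-like gene, at -0.09 and DPYD at 0.38, its 9.82 CPM in knockdown library a exceeding the 3.09 to 5.13 CPM of the other 5 libraries.

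The direction went with the level of the gene. The classes planned at 10 and 1 CPM put 45 genes in 1 class, so the 46 genes were ranked by mean CPM and cut at 50.5 and 234 CPM, a choice made after the values were seen. Of the 15 genes of the upper class, 14 had a lower value and the median log2 fold change was -0.31. The middle class had 13 of 16 lower and a median of -0.18. The lower class had 6 of 15 lower and a median of 0.04. Over the 46 genes Spearman's rho was -0.56 between mean CPM and log2 fold change and 0.41 between span and log2 fold change, as descriptions across genes that share the same 6 libraries; the lower class also holds the longer genes, with a median span of 1372 kb against 814 kb in the upper class. Over all tested genes in the same CPM ranges, long or not, the medians were 0.002, -0.02 and 0.04.

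In the lower class the sign of the median depended on single libraries and on the test. The median of library a there, as a difference from the control mean, was 0.38, with 10 of 15 genes above all controls. Of all tested genes in that CPM range 36.7% were. In the upper class the median of library a was -0.42, with 14 of 15 genes below all controls, against 38.8% of all tested genes in that range. Library b was at -0.50, -0.49 and -0.51 in the lower, middle and upper classes, and library c at -0.09, 0.02 and 0.04. Across the 46 genes rho between mean CPM and the difference was -0.71 in library a, -0.21 in b and 0.26 in c. Without library a the lower class had a median log2 fold change of -0.27, and without library b 0.22; without control library b it was -0.02, with limma-voom -0.019 and with the library letter as a block -0.0026. The upper class stayed lower under every left-out library, from -0.49 without knockdown library c to -0.22 without b, and the middle class from -0.35 without c to -0.10 without b.

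**Figure D4:**
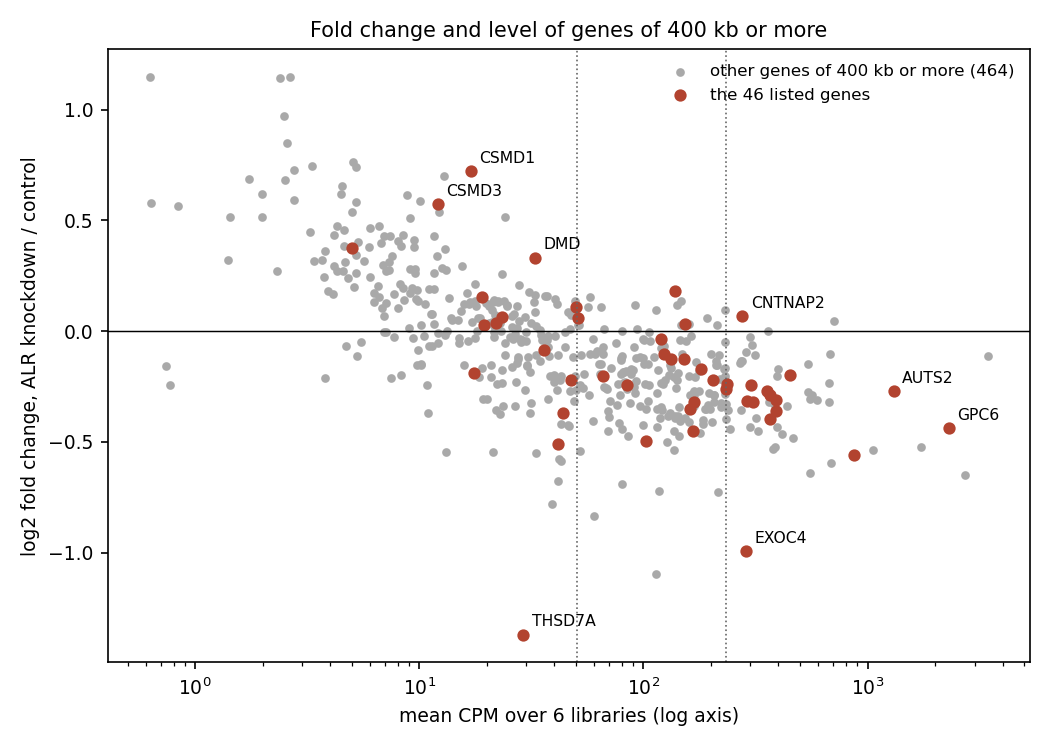
Log2 fold change (knockdown over control) against mean CPM over the 6 libraries (log axis) for the 46 listed genes (red) and the 464 other genes of 400 kb or more (grey); dotted lines mark the class limits at 50.5 and 234 CPM. Values are mostly below 0 to the right of the lines and spread to both sides, with more above 0, at the left.

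Per length, library a exceeded the control mean in the lower class by 1.67 (MACROD2) to 14.2 (CSMD1) CPM per megabase of span, except in THSD7A, SOX5 and ZBTB20, where it was below. CSMD1 had a control mean of 6.22 CPM per megabase. CSMD3 exceeded its control mean of 7.99 by 13.4, DMD its 13.0 by 10.1, LRP1B its 9.49 by 8.20 and DPYD its 4.73 by 5.99 CPM per megabase. Other rows of 400 kb or more with a control mean of 1 to 10 CPM showed it too. Of these 92 rows, 89 lay above all controls in library a (33.5% of all genes did), 5 in b (34.5%) and 20 in c (28.6%). Their median was 17.8 CPM per megabase in library a and 7.24 to 9.13 in the other 5 libraries. Library a is the one in which 29678 rows had a count; the part of that in these genes was not tested.

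The remaining genes of 400 kb or more, none of them on the list, were set beside the 46. Of 464 tested, 13 passed and all 13 were lower (2.80%; 0.649% of all genes passed as lower), with a median log2 fold change of -0.07. That median was 0.0043 without knockdown library b and -0.18 without knockdown library a. At the level of the upper class 37 of 39 were lower with a median of -0.32, and at that of the middle class 146 of 164 with -0.22. At the level of the lower class the median was 0.08, with 102 of 261 lower. These are close to the -0.31, -0.18 and 0.04 of the 46 genes. The overall medians of -0.22 and -0.07 belong to sets that differ in level (median 145 against 37.7 CPM) and in span (median 1054 against 546 kb). The part of level or span in that difference was not tested. The 13 became 2 without control library a (0.127% of all genes) and 160 without knockdown library c (6.40%). The number was 7 or 8 without knockdown library b or control library b or c. The share of all genes at those settings is not given here, so these counts cannot be set against it.

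The 6 with the smallest p are named here. SLC44A5, a choline transporter-like gene, had 305, 307 and 319 CPM against 448, 442 and 452 CPM and fell by 0.53 ± 0.06 on the log2 scale (SE; edgeR adjusted p = 0.0019). TRPC6, a cation channel, had 849, 835 and 899 CPM against 1259.7, 1243 and 1236 CPM and fell by 0.53 ± 0.06 (edgeR adjusted p = 0.0021). SGCD, a sarcoglycan of the dystrophin complex, had 1378, 1344 and 1522 CPM against 2051, 2009 and 2034 CPM and fell by 0.52. CREB5, a transcription factor, fell by 0.78, PCLO, a presynaptic scaffold, by 0.69, and C7orf10, listed under an older symbol, by 0.68 (edgeR adjusted p at most 0.0062). In all 6, knockdown library c lay below every control, as in EXOC4 and THSD7A. These genes were picked by p, which favours genes whose groups lie apart. Of all 464 other genes of 400 kb or more, 22.6% had library c below every control, against 28.4% of all genes.

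By span over all genes, the median log2 fold change went from 0.07 below 10 kb through 0.04 (10 to 30 kb), 0.01 (30 to 100 kb), -0.03 (100 to 200 kb) and -0.07 (200 to 400 kb) to -0.10 at 400 kb or more, the 45 long genes of the list included. Among genes at the level of the upper class the end points were 0.05 and -0.31. In that range library b went from 0.17 to -0.50 and library a from 0.07 to -0.42, whereas library c was at -0.09 below 10 kb and -0.05 at 400 kb or more. The controls at 400 kb or more were at 0.09, -0.11 and 0.03, so the span also moved with single control libraries, by less.

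**Figure D5:**
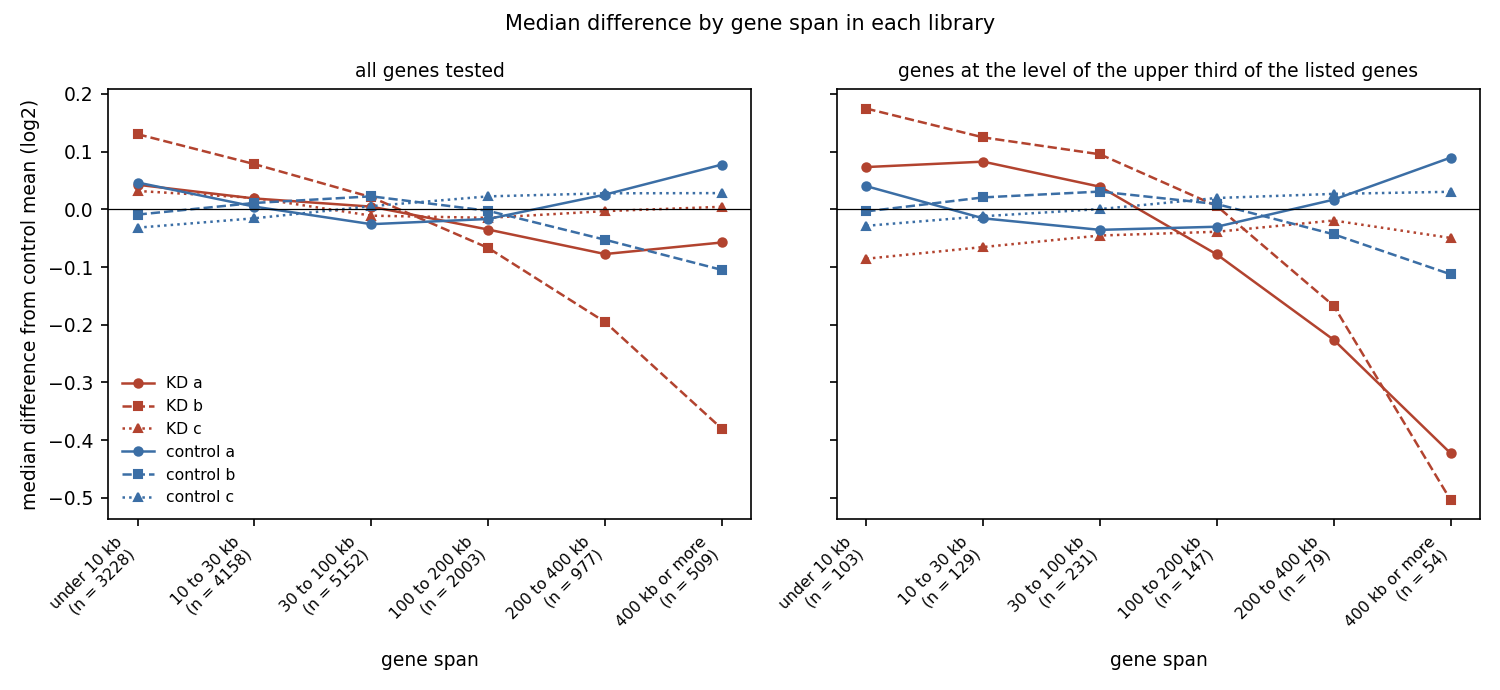
Median difference from the control mean (log2(CPM + 0.5) scale) by gene span in each library, for all genes tested (left) and for genes at the level of the upper class of the listed genes (right); n is the number of genes. Knockdown libraries a and b reach -0.42 and -0.50 at 400 kb or more on the right, and knockdown library c stays at -0.05.

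The machinery that long transcription units lean on was read from a list of 42 elongation factors, topoisomerases and U1 proteins, of which 40 were tested. None passed (edgeR, adjusted p under 0.05; 0.786% of all genes did). At an unadjusted p under 0.05, 3 were higher and 1 lower, where 6.69% and 7.56% of all genes were. Groups did not overlap in 3 higher and 5 lower genes (9.55% and 9.36% of all genes). The median was 0.02. SSRP1, a subunit of the histone chaperone FACT, was at 0.19, CDK9, the kinase of P-TEFb, at 0.19 and NELFB, of the pausing factor NELF, at 0.21, while CCNT2, a cyclin partner of CDK9, was at -0.15. TOP1 was at -0.08, TOP2A at 0.14 and TOP2B at -0.02.

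Paralogs and partners of the 46 that span under 400 kb gave 57 tested genes with a median of 0.01, and none passed (edgeR; 0.786% of all genes did). At an unadjusted p under 0.05, 7 were higher and 6 lower, where 6.69% and 7.56% of all genes were. Groups did not overlap in 8 higher and 6 lower genes (9.55% and 9.36% of all genes). FOXP4, the relative of FOXP1, was at 0.48 ± 0.11 (SE; edgeR adjusted p = 0.063). The 6 lower at an unadjusted p under 0.05 were PARD6G (-0.32), TCF12 (-0.27), VPS13C (-0.26), DLG1 (-0.24), MAGI3 (-0.21) and EXOC1 (-0.17). Beside FOXP4 the higher ones were DLG4 (0.30), PTPRF (0.27), LRP1 (0.24), ERBB2 (0.24), SOX13 (0.16) and PTPRS (0.15). The number that passed became 6 without knockdown library c, where 6.40% of all genes passed.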

How the data were processed

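The submitters deposited raw read counts per gene symbol, 1 column per library. Per the submitters' processing notes, Trimmomatic 0.39, STAR 2.7.8a, featureCounts and Subread 2.14.2 were used with hg38. The annotation, feature and strand setting are not given in the sources used here. Of 53719 rows, 31499 were matched to GENCODE names and 1461 through older symbols, for span, exons and GC content.

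Genes were filtered with filterByExpr, scaled by TMM and tested with edgeR 4.0.16 (limma 3.58.1, R 4.3.3), with the group as the only term, on all 6 libraries. Tests were two-sided, with p adjusted over all tested genes (Benjamini-Hochberg) and called under 0.05. The common biological coefficient of variation was 0.103. Further tools were DESeq2 1.42.0, Python 3.11.15 and SciPy 1.17.1. Errors are SD of CPM or SE of fitted log2 fold changes.

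The genes and lists were chosen with earlier results of these data known. Named with full values were genes past the threshold, further ones with unadjusted p under 0.05 and no overlap, and the highest of each role. An exception to this rule is 1 listed gene, the highest of the enzyme role, which is not reported here by name or value but is included in all counts and medians. Of the other genes of 400 kb or more, the 6 with the smallest p were named. Genes outside this rule, such as CSMD1, CSMD3, LRP1B, CTNNA3, DMD, NRG1, FHIT, WWOX and those of the elongation, paralog and marker lists, were chosen after their values were seen.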

Additional observations from a re-analysis of the deposited data

How the results depend on the processing

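Over 16 alternatives the number of the 46 genes with a lower value, 33, ranged from 28 (without knockdown library b) to 43 (without a), and the median of the 46 genes was below 0 in each. The number past the threshold did move. Of the 46 genes it was 22 without a low-count filter (19 lower, and 3 higher: CSMD1, CSMD3 and DMD), 8 with the DESeq2 Wald test, 4 with the GC trend removed and 0 in the robust edgeR fit; apart from those 3, all were lower. Leaving out 1 library gave 0 (control a) to 26 (knockdown c). Among the other genes of 400 kb or more it was 133 without a filter, 43 with DESeq2, 34 with the GC trend removed and 2 to 160 with 1 library left out. Of the elongation list 0 to 2 passed with 1 library left out. Of the shorter paralogs, 6 passed without a filter, 3 with DESeq2, 1 with library size alone, 1 with upper-quartile scaling, 1 in the robust fit and 0 to 6 with 1 library left out, and their median was -0.051 with the GC trend removed and -0.046 to 0.046 with 1 library left out. Over all genes, 3.29% passed without a filter, 1.46% with DESeq2, 1.51% with the GC trend removed and 1.07% in the robust fit. That share was 6.40% without knockdown library c, 0.507% without knockdown library a and 0.127% without control library a. The causes were not tested.

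With the library letter as a replicate block, 8 of the 46 genes passed, all lower, as did 64 of the other long genes and 1 of the paralogs, against 388 of all genes (1.97%). The correlation of deviations between libraries with the same letter was -0.011 (a), 0.140 (b) and -0.010 (c). The labels do not say whether the letters pair the libraries. These correlations cannot decide it, because each deviation is from a group mean of only 3 libraries.

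The sign of 15 genes, none of them past the threshold where it turned, depended on 1 library. Their log2 fold changes with 1 library left out ran from -0.26 to 1.05 for CSMD1, -0.16 to 0.89 for CSMD3, -0.021 to 0.29 for CTNNA2, -0.20 to 0.18 for DLG2, -0.30 to 0.68 for DPYD, -0.075 to 0.21 for ERBB4, -0.27 to 0.22 for GPC5 and -0.44 to 0.42 for LRP1B. They ran from -0.41 to 0.0012 for MACROD2, -0.26 to 0.088 for NAALADL2, -0.25 to 0.24 for NRG1, -0.052 to 0.24 for NRXN3, -0.025 to 0.12 for PTPRD, -0.58 to 0.11 for RBFOX1 and -0.41 to 0.035 for WWOX. With limma-voom GPC5 was at -0.019, LRP1B at -0.0075 and NRG1 at -0.040, and with the replicate block GPC5 was at -0.0026 and NRG1 at -0.014. DPYD, with 96 counts in 1 library, has the least depth.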
